A study of Mus musculus with 2 samples.

Results

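The miR-29 family was examined in the stomach of the mouse embryo, late in gestation. Its members were taken by gene name: Mir29a and Mir29b-1 on chromosome 6, and Mir29b-2 and Mir29c on chromosome 1. All 4 were found among the 1973 genes of the count tables, and the rule names them without using their levels. Short RNA, with a labelled size range below 30, was sequenced from whole stomach of the B6NCrl strain. The 2 libraries each came from a pool of male and female embryos at embryonic day 16.5. Replicate 2 was a pool of 41 embryos, and the labels give no number for replicate 1. Both pools are described as healthy, with no treatment or genetic change named, and both carry the same donor label. A p-value between them therefore speaks only of these samples, and it sets their difference against counting error alone. With 1 library per pool, it holds no spread among animals. No other age or tissue was in the series, so whether the family rises or falls around birth was not measured. In whole-organ pools, fewer cells that make a miRNA and less of it in each cell cannot be told apart.

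MicroRNAs (miRNAs) are short RNAs, cut from a hairpin, that guide Argonaute proteins to messenger RNAs and lower their translation and stability. A target is recognised mainly through the seed, a short stretch near the 5′ end of the mature strand. The miR-29 family is best known for restraining collagens, elastin, fibrillin and other proteins of the extracellular matrix, and a loss of miR-29 accompanies fibrosis in heart, lung, liver and kidney. It also acts on the DNA methyltransferases and TET enzymes and on the survival factor Mcl1. In several tissues its level is low in the embryo and rises as the tissue matures.

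The 3p arm is the strand that carries the family's known activity, and it is shown for each member because its letters decide both what it can target and which reads can be assigned to one gene. Capitals mark the seed, bases 2 to 8 counted from the 5′ end. Sequences are those of RefSeq on GRCm38.p6, in which all 4 members had an entry.

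miR-29a-3p: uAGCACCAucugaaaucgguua
miR-29b-3p: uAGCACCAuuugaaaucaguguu
miR-29c-3p: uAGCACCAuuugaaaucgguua

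The seed was identical in the 3 sequences. Among 1738 mature entries of the RefSeq table it occurred in 4, which were the 3p arms of the 4 members, and in 0 entries of any other gene. From miR-29a-3p to miR-29c-3p there was 1 substitution over 22 bases, C10U. From miR-29c-3p to miR-29b-3p there were 3, which were G18A, U21G and A22U. The 3p arms were poor in G and C, at 40.9% for miR-29a-3p, 36.4% for miR-29c-3p and 34.8% for miR-29b-3p, against a median of 52.2% over the mature sequences of the table. Of the 3, only miR-29b-3p ends in AGUGUU, a hexamer known for directing this miRNA to the nucleus. These letters were found, at any position and not only at the end, in 12 of 1674 distinct mature sequences, or 0.717%. The search was on the mature strand only.

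The hairpins show where the members differ outside the arm. Capitals mark the 3p arm.

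Mir29a: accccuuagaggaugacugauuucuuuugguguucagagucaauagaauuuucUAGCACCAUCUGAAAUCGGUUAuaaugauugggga
Mir29b-1: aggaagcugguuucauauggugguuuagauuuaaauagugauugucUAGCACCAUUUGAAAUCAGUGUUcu
Mir29b-2: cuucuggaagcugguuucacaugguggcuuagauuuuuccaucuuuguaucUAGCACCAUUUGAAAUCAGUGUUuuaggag
Mir29c: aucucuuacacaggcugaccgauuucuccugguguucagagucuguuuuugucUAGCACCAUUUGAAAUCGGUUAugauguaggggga

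Mir29b-1 and Mir29b-2 carry the same 3p arm, letter for letter, and their hairpins share an unbroken stretch of 25 bases that covers it. The deposited tables keep reads with more than 1 position apart from the gene counts, and such reads were 25.1% of the file in replicate 1 and 25.2% in replicate 2. A read of miR-29b-3p fits both hairpins, so by this rule it would be in that total and not in the count of either gene. The 5p arms of the pair, which are normally the minor strands, differ and each lay in 1 hairpin.

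miR-29b-2-5p: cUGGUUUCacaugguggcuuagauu
miR-29b-1-5p: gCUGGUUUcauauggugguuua

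The capitals are again bases 2 to 8, and neither stretch is the family's seed. Reads cut from the 5p arms, or reads reaching past the shared stretch, are what can be counted at the miR-29b genes. How many counted reads came from which arm was not tested, since the tables give 1 count per hairpin.

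miR-29a-3p and miR-29c-3p each lay in 1 hairpin. The first 10 bases were enough to set miR-29a-3p apart from every other hairpin in the table. For miR-29c-3p it took 18, because its first 17 bases are also those of miR-29b-3p, and the hairpins of Mir29c and Mir29b-1 share 22 bases that begin before the arm. Of 1674 distinct mature sequences, 54 (3.23%) lay in more than 1 place, miR-29b-3p among them. These counts are of exact matches. Whether the aligner allowed the single mismatch that separates miR-29a-3p from miR-29c-3p is not given in the sources used here.

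**Figure D1:**
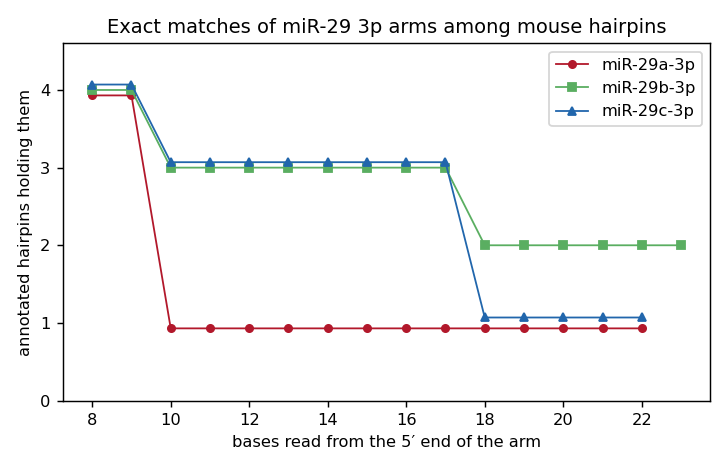
Number of mouse hairpins in the RefSeq table (vertical axis) that hold the first bases of each miR-29 3p arm exactly, by how many bases are read from the 5′ end (horizontal axis). Lines are offset slightly so that they stay visible; miR-29a-3p reaches 1 hairpin at 10 bases and miR-29c-3p at 18, while miR-29b-3p stays at 2 over its whole length of 23 bases.

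The members form pairs, each made of a miR-29b gene followed by a member with an arm of its own. On GRCm38, the assembly that mm10 names, Mir29a lies on chromosome 6 from 31062660 to 31062747 and Mir29b-1 from 31063023 to 31063093, both on the minus strand and 275 bases apart. Mir29a overlapped no other annotated gene, and Mir29b-1 touched the long noncoding RNA Gm27019 by 2 bases. Mir29b-2 lies on chromosome 1 from 195037040 to 195037120 and Mir29c from 195037547 to 195037634, on the plus strand and 426 bases apart. Both lie inside an exon of the noncoding host transcript A330023F24Rik. On the opposite strand they fall inside an exon of Cd46, which encodes a membrane regulator of complement. No read was counted on the opposite strand at any member in either library.

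Sense-strand reads of miRNA genes numbered 7734578 in replicate 1 and 7983714 in replicate 2. Levels are given as counts per 1000000 of those reads (CPM). Intervals and floors cover counting error only, as no molecular identifiers are mentioned in the labels, and 3 reads, the most that a count of 0 allows for, equal 0.388 CPM in replicate 1 and 0.376 CPM in replicate 2. The miRNA genes of smooth muscle, Mir143 and Mir145a, made up 20.2% and 19.7% of the sense reads in replicates 1 and 2, and the 9 epithelial genes 5.51% and 5.49%. All members of both lists were at 10 CPM or more in both libraries, as were 277 of all 1973 genes. The striated muscle list differed between the pools, at 0.321% and 0.0103%, mostly through Mir206 with 24624 and 797 reads. Of its 6 genes 5 were measured, of which 1 was at 10 CPM or more in both libraries. Mir133a-1 and Mir133a-2 had no read. The part of striated muscle in the values below was not tested. The messenger RNAs that define gastric epithelium were not measured in these libraries.

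Mir29a was the highest member. Its 794 reads in replicate 1 and 633 in replicate 2 were 102.7 CPM (exact Clopper-Pearson 95% interval 95.6 to 110.1) and 79.3 CPM (73.2 to 85.7). Its mean was 91.0 ± 16.5 CPM (SD, n = 2). Mir29c had 480 and 506 reads, or 62.1 CPM (56.6 to 67.9) and 63.4 CPM (58.0 to 69.1). Mir29a stood above Mir29c in both libraries, and their intervals did not overlap in either. The mean of Mir29c was 62.7 ± 0.933 CPM, so the gap of 28.3 CPM was larger than both SDs.

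The miR-29b genes were near the bottom of what these libraries can show. Mir29b-1 was counted 6 times in replicate 1 and 12 times in replicate 2, a mean of 1.14 ± 0.514 CPM (SD, n = 2). Mir29b-2 had 7 and 10 reads, a mean of 1.08 ± 0.246 CPM. Their order is not settled, since each interval held the other gene's value in both libraries. These values are those of uniquely placed reads and give no level for mature miR-29b, whose 3p arm cannot be assigned. The full order was thus Mir29a, Mir29c, then Mir29b-1 and Mir29b-2 together. Per base of hairpin the order was the same, at 1.03 CPM for Mir29a, 0.713 for Mir29c, 0.016 for Mir29b-1 and 0.0133 for Mir29b-2, each a mean level divided by hairpin length.

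**Figure D2:**
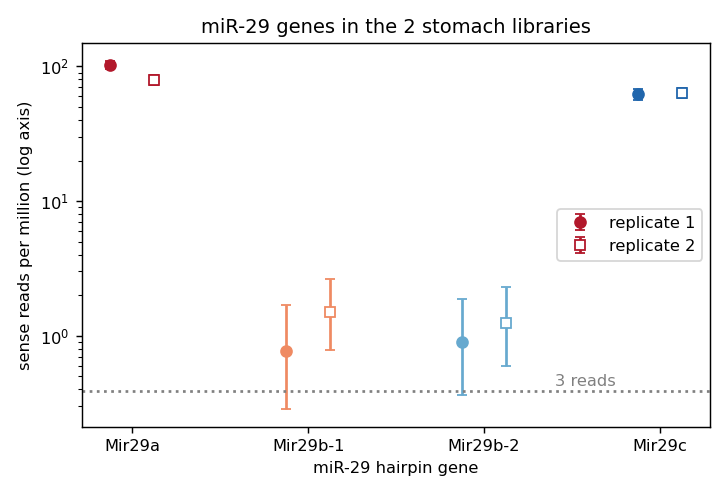
Level of each miR-29 gene in CPM (log axis) in replicate 1 (filled circles) and replicate 2 (open squares), with exact 95% intervals of the counts and the level of 3 reads as a dotted line. Mir29a and Mir29c lie between 62.1 and 102.7 CPM, while Mir29b-1 and Mir29b-2 lie between 0.776 and 1.50 CPM.

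Within each pair the downstream member held nearly all counted reads. Mir29a had 132 times the reads of Mir29b-1 in replicate 1 and 52.8 times in replicate 2, and Mir29c had 68.6 and 50.6 times those of Mir29b-2. Members of a pair lie close together and are known to be cut from 1 primary transcript. The 3p arm shared by the miR-29b genes moves with this gap, and its part in the gap was not tested.

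The chromosome 6 pair held 800 reads in replicate 1 and 645 in replicate 2, against 487 and 516 for the chromosome 1 pair. It was thus higher in both libraries, by 1.64 times in replicate 1 and 1.25 times in replicate 2. The difference was 28.3 CPM on average, 40.5 CPM in replicate 1 alone and 16.2 CPM in replicate 2 alone. An exact permutation test over the libraries gave p = 0.333 (two-sided), the smallest that 2 values against 2 can give. Both pairs were read in the same libraries, and an exact exchange within each library gave p = 0.5, also the smallest it can give. Mir29a made up 62.3% of the reads of these 2 abundant genes, Mir29a and Mir29c, in replicate 1 (exact 95% interval 59.6% to 65.0%) and 55.6% in replicate 2 (52.6% to 58.5%). The intervals, which cover counting error only, did not overlap, and with 1 library per pool no spread among animals stands beside them.

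As a family, miR-29 held 1287 sense reads in replicate 1 and 1161 in replicate 2, or 0.0166% (exact Clopper-Pearson 95% interval 0.0157% to 0.0176%) and 0.0145% (0.0137% to 0.0154%). Mir29a supplied 61.7% of them in replicate 1 and 54.5% in replicate 2, and Mir29c 37.3% and 43.6%. Reads with more than 1 position, those of miR-29b-3p by the rule above among them, are in neither the family's count nor the total it is divided by, so the share of the mature family was not measured. Ranked by summed level, miR-29 was number 145 of 583 families defined by the number in the gene symbol, and number 36 of the 60 that had several genes with a read. Those 60 families had a median of 482 CPM, against 156 CPM for miR-29. With the families ranked by the median of their members miR-29 was number 188.

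Among single genes, Mir29a was number 199 and Mir29c number 216 by mean level, Mir29b-1 number 424 and Mir29b-2 number 427. A sense read was seen for 751 genes, whose median was 1.91 CPM. Mir29a lay at or above 73.6% of them, Mir29c at or above 71.4%, and the miR-29b genes at or above 43.7% and 43.3%. The 289 genes averaging at least 10 CPM had a median of 309 CPM, so Mir29a and Mir29c were below the middle of the genes that could be tested. The genes nearest to Mir29a in mean level over the 2 libraries were Mir493, Mir138-1 and Mir770 above it, at 94.4, 94.2 and 91.9 CPM, and Mir539, Mir345 and Mir6236 below it, at 83.2, 82.8 and 81.8 CPM. None of these 6 differed from Mir29a by more than its SD of 16.5 CPM.

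**Figure D3:**
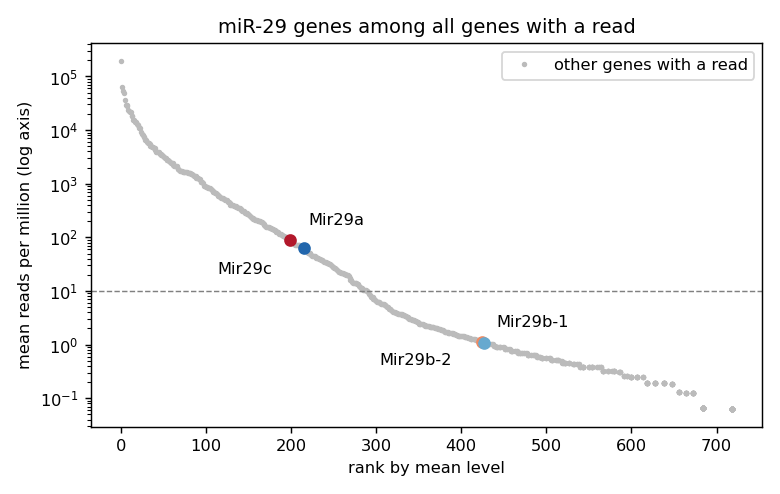
Mean level in CPM (log axis) against rank for the 751 genes with a sense read, with the miR-29 genes in colour and 10 CPM as a dashed line. Mir29a and Mir29c sit at ranks 199 and 216, above the line, and Mir29b-1 and Mir29b-2 at ranks 424 and 427, below it.

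To see whether the level of each member held between pools, replicate 1 was compared with replicate 2 by a two-sided exact binomial test of the counts, on every gene averaging at least 10 CPM, with p-values adjusted over all of them. A gene was called at an adjusted p under 0.05 and at least 2-fold. Of the members, Mir29a and Mir29c reached that level, and neither was called. Over all 289 genes tested, 7.96% were called. Without a minimum fold both passed, Mir29a as higher and Mir29c as lower in replicate 1, and so did 76.1% of all genes tested, so passing is common at this depth.

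The size of these differences was small. These ratios use library sizes scaled by TMM, a trimmed mean of ratios over genes, while the CPM values above use total sense reads. Mir29a stood 1.14-fold higher in replicate 1 (log2 ratio 0.19, 95% interval 0.04 to 0.34, adjusted p = 0.0186 by the exact binomial test). Mir29c stood at a log2 ratio of -0.21 (interval -0.40 to -0.03, adjusted p = 0.0291 by the same exact test). Both intervals lie within 2-fold. The absolute log2 ratio had a median of 0.24 over all tested genes, and 40.1% of them were nearer to a ratio of 1 than Mir29a, and 44.3% nearer than Mir29c. With scaling by total sense reads, under which the median over the tested genes is 0.21 in place of 0.02, Mir29a stood at 0.37 and Mir29c at -0.03, the latter with an adjusted p = 0.766 by the exact test.

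The miR-29b genes were too low for the test. On 6 and 12 reads, the log2 ratio of Mir29b-1 was -1.08 with an interval from -2.84 to 0.39, and on 7 and 10 reads that of Mir29b-2 was -0.62, from -2.28 to 0.89. Both intervals hold a level 2-fold lower in replicate 1, and neither holds one 2-fold higher. With every gene with a read tested, their adjusted p-values were 0.326 and 0.671 by the exact test.

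**Figure D4:**
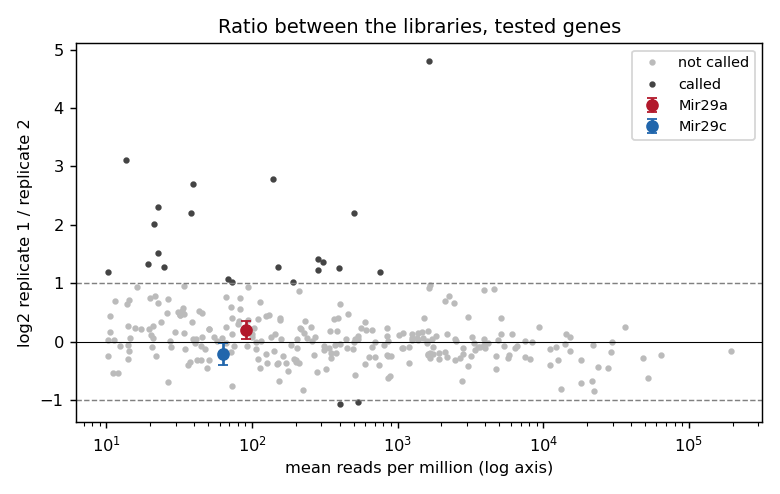
Log2 ratio of replicate 1 over replicate 2 against mean level in CPM (log axis) for the 289 genes tested, with called genes in black, Mir29a and Mir29c with their 95% intervals and dashed lines at 2-fold. Mir29a at 0.19 and Mir29c at -0.21 both lie well inside the dashed lines.

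The family was then set beside other miRNA families, because its level alone says little. The miR-26 family, 3 genes that take part in growth control, held 25570 CPM in replicate 1 and 30670 in replicate 2, which was 154 and 211 times the level of miR-29. The miR-30 family, 6 genes that restrain connective tissue growth factor, held 28116 and 21755 CPM, which was 169 and 150 times. The 3 genes of miR-148 and miR-152, which share a seed and act on DNA methyltransferases, held 1733 and 1516 CPM, or 10.4 times miR-29 in both libraries. The miR-101 genes held 10.4 and 12.7 times the level of miR-29, and the miR-18 genes 17.2 and 18.8 times. On the other side were miR-19, whose 3 genes act on connective tissue growth factor, at 52.5 and 50.6 CPM, or 0.315 and 0.348 times miR-29, and the miR-133 genes of muscle, at 0.15 and 0.0172 times. In both libraries miR-29 was thus below 5 of these 7 sets and above miR-19 and miR-133, with gaps larger than either SD. This is an order of uniquely placed reads. Mir19b-1 and Mir19b-2 each have an arm in more than 1 place, whose reads would be left out of the miR-19 total. Mir133a-1 and Mir133a-2 had no read and no entry in the RefSeq table, so copies of their arms were not counted. For each of the 7 comparisons the exact permutation p was 0.333 (two-sided) and the exact p for exchange within libraries 0.5, in both cases the smallest possible, and adjustment cannot lower them.

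Lists of miRNA genes known from matrix control and fibrosis gave the wider setting. A list of genes reported to restrain matrix proteins or their inducers had 18 members, all of them in the tables. Of these, 13 were at 10 CPM or more in both libraries and 8 were above Mir29a. Over all 1973 genes, 277 were at 10 CPM or more in both libraries, and Mir29a was number 199. The median of the list was 47.7 CPM over all 18 genes, 2 of them without a read. It is set against 1.91 CPM over only the 751 genes with a read, so the sets are unlike. The list stands as a description. Its highest genes were Mir26b at 28065 ± 3621 CPM (SD, n = 2), Mir30e at 14390 ± 2187 CPM and Mir30d at 5153 ± 1444 CPM. Mir133a-1 and Mir133a-2, muscle genes of this list, had no read. Mir29a and Mir29c were above the median of this list.

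A list known from fibroblast activation had a higher median than the matrix-restraining list, whose Mir26b was above every fibroblast gene. Of all 1973 genes, 277 were at 10 CPM or more in both libraries, and Mir29a was number 199. Of the 6 fibroblast genes, 5 were at that level and 5 were above Mir29a, with a median of 1574 CPM. Mir21a, which is raised in many fibrotic tissues, led this list at 15325 ± 113 CPM (SD, n = 2). Mir214, a mesenchymal gene, stood at 6647 ± 336 CPM and Mir199b at 1670 ± 891 CPM. Mir192, at 1479 ± 244 CPM, is also among the 9 epithelial genes used to describe the tissue. Which cells its reads came from was not measured. All 6 genes of the epithelial list, which act against TGF-beta-driven loss of epithelial identity through Zeb1 and Zeb2, were above Mir29a. Their median was 10258 CPM, with Mir429 at 23612 ± 3020 CPM, Mir200c at 14209 ± 993 CPM and Mir205 at 11125 ± 331 CPM.

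Other genes whose mature arm lies in several places were looked at beside the miR-29b genes. Of the 18 genes of the matrix-restraining list, 14 had an entry in the RefSeq table. The 6 with an arm in more than 1 place, Mir30c-1, Mir30c-2, Mir26a-1, Mir26a-2, Mir19b-1 and Mir19b-2, lay between 4.02 and 50.4 CPM. The 8 with arms in 1 place lay between 13.7 and 28065 CPM, with a median of 2228 CPM. In the fibroblast list, the 3 genes with a shared arm lay between 11.4 and 1670 CPM and the 3 with arms in 1 place between 1479 and 15325 CPM, so these ranges overlap. Which arm the reads of a gene came from is not in the tables, and the part of shared arms in these levels was not tested. Mir29a and Mir29c, whose 3p arms lie in 1 place, fell in the lower part of the range of the 8 genes. The family totals of miR-26, miR-30 and miR-19 leave out shared reads as that of miR-29 does.

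**Figure D5:**
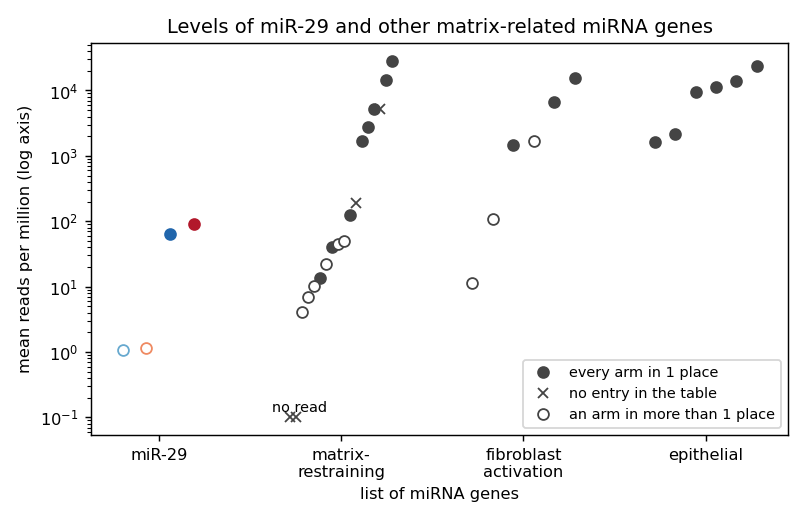
Mean level in CPM (log axis) of the miR-29 genes and of the genes of 3 lists, with filled circles for genes whose arms lie in 1 place, open circles for genes with an arm in more than 1 place and crosses for genes without an entry in the table. Mir29b-1 and Mir29b-2, near 1 CPM, are open circles, and Mir29a and Mir29c lie below all 6 epithelial genes. Crosses at the lowest edge are genes with no read.

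Messenger RNAs were not sequenced here, so the family's link to matrix genes was described from sequence alone. The motif was TGGTGCTA, the complement of the seed followed by an A, searched on the sense strand of the longest annotated 3′ UTR of each protein-coding gene. It was present in 15 of 24 matrix genes (62.5%), of which 4 held it more than once and 11 once. Over all 21006 protein-coding genes with a usable annotated 3′ UTR, called all genes below, it was present in 2.86%. It was present in 2.18% of the 4500 whose 3′ UTR length fell within the interquartile range of the matrix list. The list was drawn up from known miR-29 targets and other matrix genes, so its share is not independent evidence. The shorter motif without the final A, TGGTGCT, which lies inside the first, was present in 18 of the 24 genes and in 13.1% of all genes.

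The sites below are shown as examples of what the seed can pair with in matrix genes. Each is the stretch of 3′ UTR up to and including the match, in capitals, read 5′ to 3′ on the strand of the gene from GENCODE M21 transcripts. Col1a1 and Col3a1, the major fibrillar collagens of the gut wall, each held 1 match. Eln, which encodes elastin, held 2. Fbn1, which encodes fibrillin of the microfibrils, held 1. These 4 genes were picked after the matches were seen.

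Col1a1, chr11:94952524-94952545, plus strand: tgggaaggaatttcTGGTGCTA
Col3a1, chr1:45348968-45348989, plus strand: tcaaaatgtctcaaTGGTGCTA
Eln, chr5:134703736-134703757, minus strand: gacctcatcaacgtTGGTGCTA
Eln, chr5:134703489-134703510, minus strand: tctccaagggaaatTGGTGCTA
Fbn1, chr2:125301173-125301194, minus strand: ttctgttgtctgttTGGTGCTA

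The most matches were in Col4a5, a basement membrane collagen, with 3, followed by Col5a1, Eln and the collagen crosslinking enzyme Loxl2 with 2 each. No match lay in the windows of Col1a2, Col4a2, Fbln5, Fn1, Hspg2, Loxl4, Mmp2, Nid1 and Sparc, which says only that these letters are not in that annotated stretch. Of 10 genes of DNA methylation and cell survival, 6 held the motif, with 2 matches each in Dnmt3a, Tet2 and Tet3. Their 3′ UTRs are long, with a median of 4072 bases against 960.5 for all genes, and held 2.01 matches per 10 kb, against 5.66 in the matrix list and 0.202 over all genes. Of the 4527 genes with a 3′ UTR in the interquartile range of these lengths, 6.89% held the motif. This list too was drawn up from known miR-29 targets and related genes, so its share is not independent evidence. The seed, and with it this motif, is the same for all 4 members, so nothing in the match tells Mir29a from Mir29c. A match is a stretch of letters and not a measured site.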

How the data were processed

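Small RNA was measured in 2 libraries of 1 group. The authors deposited raw read counts per gene for each library, aligned to mm10 and counted on GENCODE M4 per the file headers; aligner, counter and trimming: not given in the sources used here. The strand column with the larger total was used as sense counts. The 4 summary totals name no gene and were left out; they held 21.3% and 20.3% unmapped and 2.81% and 3.11% unassigned reads beside the reads in several positions. Sense reads were 7734578 and 7983714.

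Symbols and positions came from GENCODE M21 on GRCm38, where 1894 of 1973 identifiers matched (Mir18a of the lists is Mir18 there, by RefSeq's synonyms), and miRNA sequences from RefSeq on GRCm38.p6. No genome sequence was used, so copies of an arm were counted among the 1005 hairpins of that table instead of genome-wide. Libraries were scaled by TMM in edgeR 4.0.16 (R 4.3.3) over genes at a mean of 10 CPM, with 0.5 added to counts for ratios; DESeq2 1.42.0 gave alternative size factors. The exact binomial test, Benjamini-Hochberg adjusted over 289 genes, was tested on simulated data. Other steps used Python 3.11.15, numpy 2.4.6, pandas 2.3.3, scipy 1.17.1 and matplotlib 3.10.9.

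The members, lists and tests were chosen with earlier results of these data known. Named genes were the members, the 3 nearest genes above and below Mir29a in level, and up to 3 highest genes of each miRNA list. Matrix genes with most or no seed matches were also named. Col1a1, Col3a1, Fbn1, Mir192, Mir206, the genes with shared arms and those at 0 were named after their values were seen. Alternatives were other scalings, denominators, strands, filters and motif lengths, and each library left out.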

Additional observations from a re-analysis of the deposited data

How the results depend on the processing

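The order of Mir29a, Mir29c and the miR-29b genes, the sign of both tested ratios and the absence of a called member at 2-fold held under every alternative run. That order could not change, since it held in each library and scaling multiplies a whole library by 1 factor. No member had an opposite-strand read. Scaling by total sense reads shifts every log2 ratio by 0.18, too little to bring Mir29a or Mir29c to 2-fold. Per 1000000 reads of the whole file, unplaced ones included, the levels were 45.0 for Mir29a, 31.1 for Mir29c, 0.566 for Mir29b-1 and 0.536 for Mir29b-2, and the family share was 0.00772%; the larger denominator sets this. With both strands counted Mir29c stood at 60.8 CPM, outside its narrow SD. Without the most abundant gene in the denominator the family share was 0.0194%. With no minimum fold Mir29a passed at a log2 ratio of 0.19 and Mir29c at -0.21. Over Mir29c's alternatives the adjusted p of the exact binomial test ran from 0.0212 to 0.766, and over Mir29a's from 2.03e-06 to 0.042. With no filter on low genes Mir29c stood at 0.0643, so its passing without a minimum fold held with neither that setting nor total scaling. The count of genes that differed between libraries was 23, and it was 49 with genes at 1 CPM or more, 55 with no filter and 220 with no minimum fold. The 7-base motif was in 2754 genes, against 600 for the 8-base motif. No paired analysis was possible because the series has 1 group, so no groups share replicate numbers. Between gene pairs within that group, the exact exchange within each library, a replicate block added after seeing the data, left the difference at 28.3 CPM with p = 0.5. The miR-29b genes had 6 to 12 reads, too few to compare.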
